A study of Mus musculus with 6 samples.

Results

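Necroptosis and pyroptosis are lytic forms of programmed death, and 10 genes of their machinery were followed in MC38 cells, a mouse colorectal cancer line, with and without knockdown of Acsl4. The genes were Ripk1, Ripk3, Mlkl, Casp8, Fadd, Casp1, Casp4, Gsdmd, Gsdme and Ninj1, taken by symbol from a table of 22386 genes, and all 10 were found. All 10 passed the filter on low counts, which left 14289 genes. The groups were 3 RNA-seq libraries of cells carrying a control short hairpin RNA (shControl, genotype given as WT) and 3 of cells carrying a hairpin against Acsl4 (shACSL4, a knockdown, although the series text says knockout). All were cultured cells with no treatment named, the hairpin sequences were not used here, and nothing states that the libraries of a group were separate cultures or clones, so p-values measure the spread between these libraries.

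In necroptosis the kinase RIPK1 engages the kinase RIPK3 through a shared interaction motif, and RIPK3 phosphorylates MLKL, which then permeabilises the plasma membrane. The adaptor FADD and caspase-8 hold this route in check by cleaving the kinases, and the same pair starts apoptosis from death receptors. In pyroptosis caspase-1, activated by inflammasomes, or caspase-11, the product of mouse Casp4 that senses cytosolic lipopolysaccharide, cuts gasdermin D so that its freed end forms pores. Gasdermin E is a related pore former, and NINJ1 drives the final rupture of the membrane after pores have opened.

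Library totals ran from 40911698 to 47127672 counts, so 3 counts, the limit that a count of 0 allows, corresponded to 0.0634 to 0.0734 counts-per-million (CPM), for counting error alone. Levels are CPM scaled by the trimmed mean of M-values (TMM), and Acsl4 itself was at 191 to 204 CPM in the controls and at 127 to 132 CPM in shACSL4. Epithelial markers were close to absent in these cells labelled as colorectal cancer: the 5 measured, Krt8, Krt18, Krt19, Cdh1 and Vil1, summed to 0.759 to 1.35 CPM over all libraries. The fibroblast-associated genes Dcn, Pdgfra, Pdgfrb and Lum summed to 758 to 860.1 CPM in the controls and 726 to 900 CPM in shACSL4. Within that sum Pdgfra rose from 122.5 ± 4.48 to 264 ± 12 CPM (n = 3, edgeR adjusted p = 4.85e-08) and Pdgfrb from 1.22 ± 0.0882 to 2.37 ± 0.277 CPM (adjusted p = 0.00559). Dcn fell from 668 ± 54.1 to 523 ± 87.3 CPM (adjusted p = 0.0431), and Lum did not pass. The part of these genes in the results was not tested. Endothelial markers summed to at most 1.07 CPM.

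The control library shControl 3 stood apart from the other controls, with a chi-square per gene of 36.2 and 40.4 against them, where shControl 1 and 2 gave 5.99 and pairs of shACSL4 libraries 11.6 to 19.9.

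Casp1 rose 3.02-fold, Casp4 2.32-fold and Gsdmd 1.6-fold in shACSL4, Fadd, Mlkl and Ninj1 rose by smaller amounts, and Casp8 fell. Ripk1, Ripk3 and Gsdme did not pass the test. In bulk RNA a larger share of cells expressing a gene and more of its RNA per cell cannot be told apart. Thus 6 of 10 genes were higher, where 15.4% of all tested genes were, and 1 was lower, where 13.6% were, with edgeR's quasi-likelihood test at a Benjamini-Hochberg adjusted p under 0.05. Calls in either direction came to 7 of 10, against 29.1% of all tested genes. The 10 genes were chosen with earlier results of these data known, so these shares are descriptions and no test. Without shControl 3 the calls over all genes went from 2205 to 2818 higher and from 1950 to 2659 lower, and the same 7 genes were called among the 10. The median log2 fold change of the 10 was 0.35, beside -0.01 over all tested genes. The libraries of the groups did not overlap for those same 7 genes, while 42.8% of all tested genes showed such a separation.

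**Figure D1:**
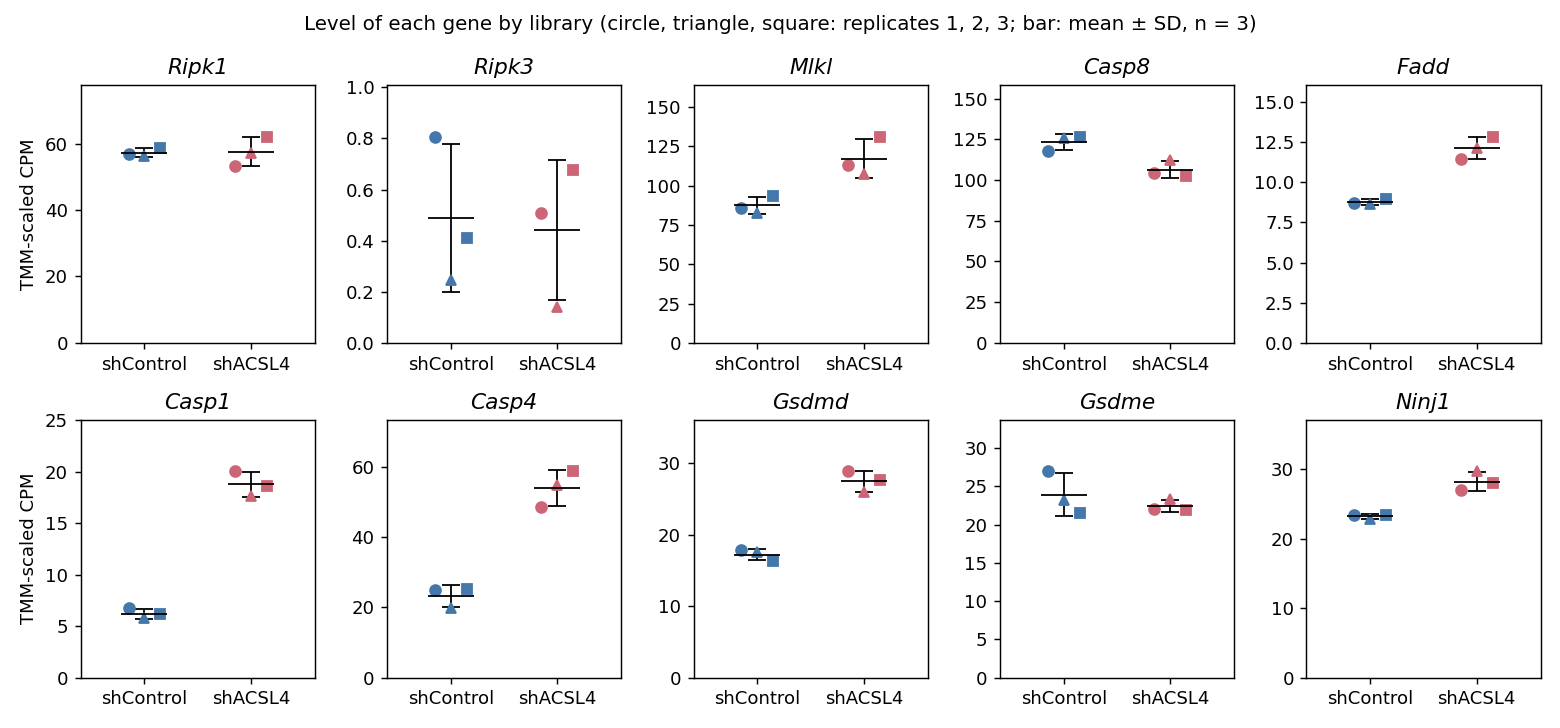
TMM-scaled CPM (vertical axes, each from 0) of the 10 genes in each library, with shControl in blue, shACSL4 in red and bars for mean ± SD (n = 3). The groups stand apart for 7 genes and overlap for Ripk1, Ripk3 and Gsdme, and Casp1 goes from about 6.22 to 18.8 CPM.

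Levels of different genes were compared per length, in the authors' FPKM values, which are scaled for exon length and depth. In the controls the most abundant of the 10 was Casp8, at 42.4 ± 1.36 FPKM (SD, n = 3), followed by Mlkl at 37.8 ± 1.99 and Ninj1 at 14.7 ± 0.273 FPKM. Gsdmd (7.21 ± 0.433 FPKM), Ripk1 (6.84 ± 0.101 FPKM) and Casp4 (6.24 ± 0.805 FPKM) formed a middle group in which neighbours overlapped between libraries. Fadd, Casp1 and Gsdme lay between 1.66 and 2.25 FPKM in every control library, and Casp1 and Gsdme overlapped. Ripk3 was last at 0.213 ± 0.128 FPKM.

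The order was different in shACSL4. Mlkl came first at 51 ± 5.47 FPKM, above Casp8 at 36.8 ± 1.72 FPKM, with no overlap between the libraries of these genes. Casp4 (14.6 ± 1.37 FPKM) and Gsdmd (11.6 ± 0.662 FPKM) stood above Ripk1 (6.92 ± 0.517 FPKM), and Casp1 (6.01 ± 0.409 FPKM) stood above Fadd (3.12 ± 0.174 FPKM). Gsdme and Ripk3 remained the lowest, at 1.76 ± 0.0576 and 0.193 ± 0.12 FPKM. The length behind the FPKM of Casp1 was 3136 bases, whereas the exons of GENCODE M21 give 1497. With the shorter length Casp1 would precede Fadd in the controls, and the remaining 8 genes would keep their places. In shACSL4 it would reach 12.5 CPM per kilobase and so precede Gsdmd (11.6) and Ripk1 (6.90), with the other 7 genes in place. Gsdme and Ripk1 carried long exon models of 12742 and 8344 bases, equal to all annotated GENCODE exons of each gene merged. The length of the transcripts made in these cells was not measured, so the low places of both genes depend on these models.

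**Figure D2:**
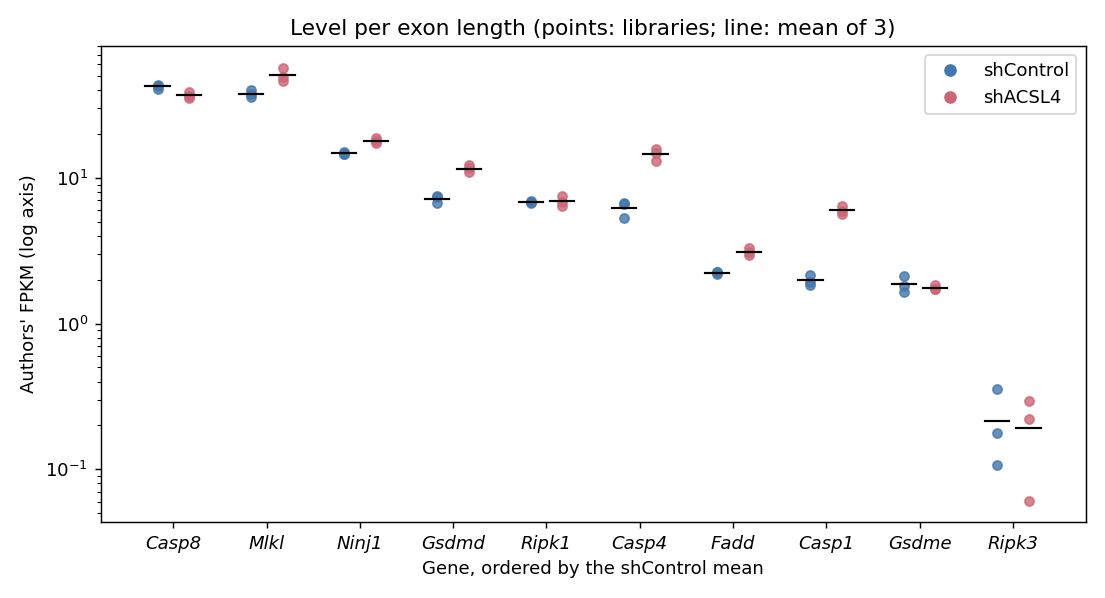
The authors' FPKM on a log axis for the 10 genes (horizontal axis, ordered by the control mean), with 1 point per library and a line at each group mean. Casp8 and Mlkl lead in both groups and exchange places, while Ripk3 lies at or below 0.355 FPKM in every library.

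Ripk1, the kinase at the head of the necroptotic route (chromosome 13, 34186346 to 34221130, GRCm39), measured 56.9, 56.2 and 58.8 CPM in the control libraries, against 53.4, 57.2 and 62.1 CPM in the knockdown (here and below in the order of replicates 1, 2, 3). The groups overlapped, with the highest and the lowest value both in shACSL4. Its log2 fold change was 0.01 (SE 0.0663, adjusted p = 0.951), with a 95% interval of 0.91-fold to 1.11-fold. From gene start to gene end Ripk1 overlaps Serpinb6a on the other strand by 432 bases, and Serpinb6a as a whole had 337% as many counts as Ripk1. Counts within the shared stretch were not measured. Because the strandedness of the counting is not given in the sources used here, reads in the shared stretch cannot be assigned with certainty.

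Ripk3, the kinase that phosphorylates MLKL (chromosome 14, 56022452 to 56026322), was covered by 34, 10 and 17 counts in control libraries and by 21, 6 and 32 counts in the knockdown. These few reads spread widely in both groups, from 0.245 to 0.807 CPM in the controls and from 0.14 to 0.677 CPM in shACSL4. Every library thus lay above the limit that a count of 0 allows, but the 95% interval of the change ran from 0.384-fold to 2.15-fold (edgeR adjusted p = 0.881). No change within that range can be told from none with these libraries.

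Mlkl, the executioner pseudokinase (chromosome 8, 112038429 to 112064809), was at 86, 82.7 and 93.4 CPM in the controls and at 113, 107 and 131 CPM in shACSL4. All shACSL4 libraries lay above all controls, and shACSL4 3 was the highest. The rise was 1.34-fold (log2 fold change 0.42, SE 0.0764, edgeR adjusted p = 0.00134). Per length, Mlkl exceeded Ripk1 by 5.52 ± 0.216 times in the controls and by 7.38 ± 0.497 times in shACSL4. This ratio depends on the long exon model of Ripk1: without length scaling the control means were 87.4 and 57.3 CPM.

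Casp8, which encodes the protease that cuts RIPK1 and RIPK3 (chromosome 1, 58834533 to 58886662), was at 117.5, 126 and 127 CPM in the controls and at 104, 112 and 102 CPM in shACSL4. It was the one gene of the 10 that fell, reaching 0.861 times its control mean (log2 fold change -0.22, SE 0.0574, edgeR adjusted p = 0.0135). Leaving out shControl 2 (adjusted p = 0.0527), shACSL4 1 (0.0628) or shACSL4 3 (0.081) ended this call. The FPKM ratio of Mlkl to Casp8 came to 0.919, 0.825 and 0.927 in the control libraries, against 1.36, 1.2 and 1.61 in the knockdown. Control libraries thus held more Casp8 than Mlkl per length and shACSL4 libraries more Mlkl than Casp8.

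Fadd, the adaptor that recruits caspase-8 (chromosome 7, 144131055 to 144136200), was at 8.72, 8.62 and 8.94 CPM in the controls and at 11.4, 12.1 and 12.8 CPM in shACSL4. The controls lay close together and below every shACSL4 library. Fadd rose 1.39-fold (log2 fold change 0.47, SE 0.102, edgeR adjusted p = 0.00409) and so went the opposite way from Casp8. The antisense transcript Faddos, which spans most of the gene, had 22 counts in all, or 0.818% of those of Fadd.

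Casp1, the inflammasome protease that also matures interleukin-1β and interleukin-18 (chromosome 9, 5298508 to 5307290), was at 6.72, 5.75 and 6.17 CPM in the controls and at 20, 17.6 and 18.6 CPM in shACSL4. The lowest shACSL4 library lay far above the highest control. The log2 fold change was 1.59 (SE 0.106, edgeR adjusted p = 5e-07), with a 95% interval of 2.57-fold to 3.54-fold. In the order of rises over all tested genes Casp1 stood at place 451 of 14289.

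Casp4, which encodes caspase-11 (chromosome 9, 5308828 to 5336783), was at 24.9, 19.7 and 25.1 CPM in the controls and at 48.5, 54.8 and 58.7 CPM in shACSL4. The groups did not overlap, and shControl 2 was the lowest library. The log2 fold change was 1.22 (SE 0.101, edgeR adjusted p = 4.59e-06), with an interval of 1.99-fold to 2.71-fold. Per length Casp4 had the higher mean FPKM of this pair in both groups, while Casp1 showed the larger fold change. The gap depends on the length taken for Casp1. With GENCODE lengths the means of Casp1 and Casp4 were 4.15 and 6.26 CPM per kilobase in the controls and 12.5 and 14.55 in shACSL4. The authors' deposited table marked Casp1 (log2 fold change 1.59) and Casp4 (1.21) as up-regulated and none of the other 8 genes, although it gave Gsdmd an adjusted p of 1.71e-10.

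Casp1 and Casp4 are neighbours on the plus strand of chromosome 9, with 1537 bases between them, and Casp12, a further caspase gene of this cluster, lies beyond Casp4. Casp12 (chromosome 9, 5345430 to 5373032) was at 55.9, 46.8 and 49.2 CPM in the controls and at 83.1, 74.7 and 78.1 CPM in shACSL4. It too separated the groups, with a log2 fold change of 0.63 (SE 0.0735, edgeR adjusted p = 4.43e-05). No other gene of the table lay within 500 kilobases of Casp1 and Casp4, so all 3 genes of that window rose. The similarity of these caspases to one another and the authors' treatment of reads matching several genes were not tested.

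Gsdmd, the pore former cut by both inflammatory caspases (chromosome 15, 75734176 to 75739257), was at 17.8, 17.6 and 16.3 CPM in the controls and at 28.8, 25.9 and 27.6 CPM in shACSL4. Every shACSL4 library exceeded every control by more than the range of the controls. Gsdmd rose by 0.67 on the log2 scale (SE 0.0812, edgeR adjusted p = 6.19e-05). Protease and substrate of the pyroptotic route were therefore both higher.

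Gsdme, the gasdermin that joins apoptosis to lysis (chromosome 6, 50165868 to 50240842), was at 27, 23.2 and 21.5 CPM in the controls and at 22, 23.3 and 21.9 CPM in shACSL4. The shACSL4 libraries lay within the range of the controls. Its log2 fold change was -0.09 (SE 0.0922, edgeR adjusted p = 0.484), with an interval of 0.816-fold to 1.08-fold. From gene start to gene end, introns included, Gsdme overlaps Pals2 on the other strand by 10052 bases. Pals2 as a whole had 663% as many counts as Gsdme, and counts within the shared stretch were not measured. The count of Gsdme is thus uncertain in the same way as that of Ripk1. The FPKM ratio of Gsdmd to Gsdme was 3.89 ± 0.302 in the controls and 6.59 ± 0.56 in shACSL4, with no overlap. Its size depends on the long exon model of Gsdme. Without length scaling the means of Gsdmd and Gsdme were 17.2 and 23.9 CPM in the controls and 27.5 and 22.4 CPM in shACSL4.

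Ninj1, which encodes the protein of membrane rupture (chromosome 13, 49340961 to 49349720), was at 23.5, 22.8 and 23.4 CPM in the controls and at 27, 29.7 and 28 CPM in shACSL4. The controls lay close together and below each shACSL4 library. The rise was 1.21-fold (log2 fold change 0.28, SE 0.0736, edgeR adjusted p = 0.0125), and the call ended without shACSL4 2 (adjusted p = 0.0611).

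**Figure D3:**
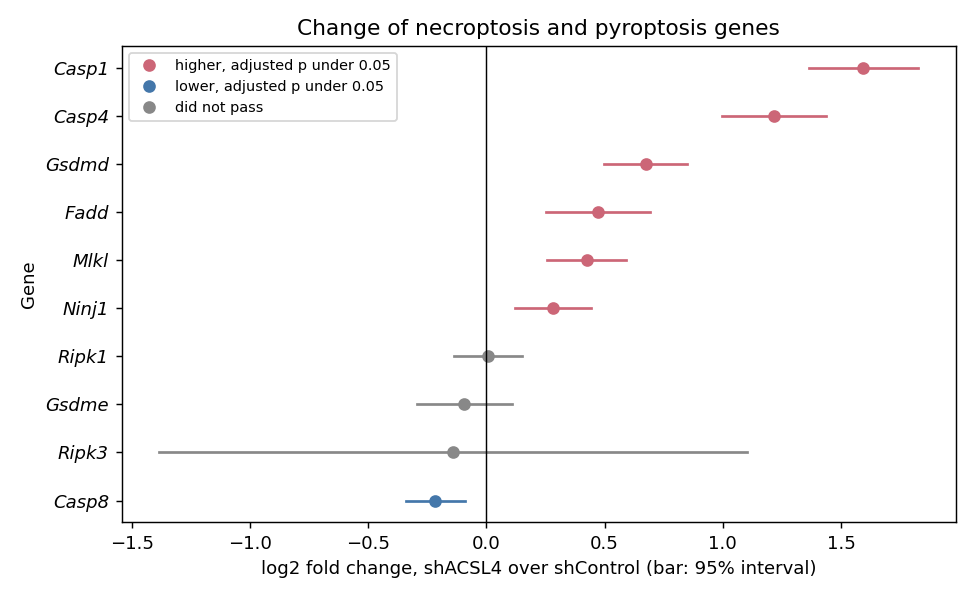
Log2 fold change of shACSL4 over shControl (horizontal axis) for each of the 10 genes, with 95% intervals; red marks higher, blue lower and grey genes that did not pass. Casp1 at 1.59 and Casp4 at 1.22 stand farthest to the right, and the interval of Ripk3 is the widest.

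Apart from Ripk3, the 9 genes varied little among the shACSL4 libraries, with coefficients of variation of 3.61% to 10.6%. That of Zbp1, the sensor that can engage RIPK3 directly, was 51.4%, because Zbp1 measured 31.2, 21.6 and 58.2 CPM in shACSL4, against 1.07, 0.979 and 1.04 CPM in the controls. Mlkl had the same order as Zbp1 among the shACSL4 libraries, whereas Casp1 was highest in shACSL4 1 and Ninj1 in shACSL4 2. Across the 6 libraries the genes whose log2 CPM followed Mlkl most closely, among 10111 genes averaging 5 CPM or more, were Mical3 (Pearson r = 0.999), Cxcl10 (0.996) and Slfn9 (0.996). For Casp1 they were Mrps36, Gypc and Vipas39 (r of 0.998 to 0.999), for Casp4 Rhobtb2, Twist2 and Onecut2 (0.999), and for Gsdmd Tmem140, Etfdh and Osbpl1a (0.999). For Fadd they were Gm49980, Wdr7 and Fth1 (0.996 to 0.998), for Ninj1 Galnt4, Nsun3 and Cep19 (0.996), and for Casp8 Sec24d, Wwtr1 and Capn2 (0.993 to 0.995). These correlations describe 6 libraries that share the split into groups, so any gene that separates the groups cleanly scores high.

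The promoters of the 10 genes were inspected, as planned, to describe their sequence. RefSeq gave windows of 300 bases on GRCm38.p6, from 250 before to 50 after the start site, for 9 of the 10 genes, not Gsdmd. They were searched on both strands for GAAA followed by any 2 bases and GAAA again, the interferon-stimulated response element bound by interferon regulatory factors and STAT complexes, for TTCNNNGAA, the palindromic site of STAT dimers, and for the shorter AANNGAAA core of interferon regulatory factors. The last was added after the first search and lies within the first motif. The windows below are those of the caspase pair and of Mlkl, which rose, and the second window of Ripk1, which alone held the longer motifs. Capitals mark every match.
Casp1 (chr9:5298267-5298566, plus strand): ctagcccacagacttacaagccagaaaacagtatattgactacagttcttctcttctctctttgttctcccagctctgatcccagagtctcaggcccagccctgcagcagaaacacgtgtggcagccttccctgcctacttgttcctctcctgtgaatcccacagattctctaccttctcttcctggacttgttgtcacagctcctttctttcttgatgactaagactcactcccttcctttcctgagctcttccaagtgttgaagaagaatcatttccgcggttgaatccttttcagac
Casp4 (first window, chr9:5308599-5308898, plus strand): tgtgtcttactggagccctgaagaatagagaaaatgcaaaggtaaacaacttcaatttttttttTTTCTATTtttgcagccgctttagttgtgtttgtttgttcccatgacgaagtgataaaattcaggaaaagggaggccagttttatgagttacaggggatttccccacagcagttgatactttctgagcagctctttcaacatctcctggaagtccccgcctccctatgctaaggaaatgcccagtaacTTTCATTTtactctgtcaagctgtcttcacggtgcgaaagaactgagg
Mlkl (chr8:111338156-111338455, minus strand): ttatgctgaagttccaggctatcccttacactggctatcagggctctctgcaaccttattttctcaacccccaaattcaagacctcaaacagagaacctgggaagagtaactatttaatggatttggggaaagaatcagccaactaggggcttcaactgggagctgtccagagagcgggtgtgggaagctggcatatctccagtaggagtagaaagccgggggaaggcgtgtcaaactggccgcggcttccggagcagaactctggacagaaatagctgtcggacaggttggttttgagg
Ripk1 (second window, chr13:34002624-34002923, plus strand): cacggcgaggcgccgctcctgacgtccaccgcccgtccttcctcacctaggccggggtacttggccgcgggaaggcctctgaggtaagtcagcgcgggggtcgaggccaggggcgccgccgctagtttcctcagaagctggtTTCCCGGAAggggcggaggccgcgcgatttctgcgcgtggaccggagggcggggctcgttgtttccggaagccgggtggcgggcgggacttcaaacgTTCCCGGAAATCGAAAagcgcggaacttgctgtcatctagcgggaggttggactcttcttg

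The response element occurred in 1 of the 9 genes, in the second window of Ripk1, where GAAATCGAAA begins at base 246 and overlaps a STAT site, TTCCCGGAA, that begins at base 240. A second TTCCCGGAA begins at base 143. The 9 genes had 11 windows. Over all 32851 promoter windows, counted by window and not by gene, 3.44% held the response element and 8.3% the STAT site. The short core was present in Ripk1, Casp8 and Casp4, and in 23.9% of all windows, and the matches of Casp4 read TTTCTATT and TTTCATTT on the strand shown. Casp1, Mlkl, Fadd, Ninj1, Gsdme and Ripk3 held none of these letters in their windows. Ripk1, the gene with the full element, did not pass the test for a change, and Casp1, with the largest fold change of the 10, had no match here. Whether these motifs bear on the changes was not tested. A match is no evidence of binding, and its absence says nothing of sites outside these windows.

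The genes around this machinery were taken from 7 lists of 100 genes, of which 93 were in the table. The lists too were chosen with earlier results of these data known, so their shares are descriptions and no test. Necroptosis signalling and its brakes had 8 of 27 members higher and 0 lower, with a median log2 fold change of 0.08. Calls in either direction came to 29.6%, near the 29.1% of all tested genes, although all were rises, which 15.4% of all tested genes showed. Without shControl 3 the list had 10 higher and 2 lower members. Zbp1 rose most of the list, by 5.16 on the log2 scale (SE 0.548, edgeR adjusted p = 0.00301). Tnfrsf1a, the receptor for tumour necrosis factor, rose 1.36-fold, from 67.1 ± 2.53 to 91.2 ± 0.79 CPM (n = 3). Birc3, a ubiquitin ligase that modifies RIPK1, and Rnf31, the catalytic part of the linear ubiquitin ligase, rose by 0.41 each, and Adar, which edits double-stranded RNA and restrains ZBP1, rose by 1.09 (edgeR adjusted p of 0.000154 to 0.00214). Cflar, the caspase-8 partner c-FLIP, was at 104 ± 0.579 and 101 ± 2.56 CPM and did not pass (adjusted p = 0.586). The remaining higher members, named after their values were seen, were the deubiquitinase gene Cyld (0.22, not passing without shACSL4 1 at an adjusted p of 0.055), Tlr3 (1.74), a sensor of double-stranded RNA, and the death receptor gene Fas (1.49). Fas was low in both groups, at 0.585 ± 0.259 CPM in the controls and 1.66 ± 0.188 CPM in shACSL4. Tlr3 was at 20.1 ± 3.49 and 67 ± 16.8 CPM.

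Inflammasome sensors and adaptors had 5 of 9 tested members higher, beside 15.4% of all tested genes, and 0 lower, with a median of 0.16. Naip2, whose product senses the inner rod of bacterial secretion systems, rose from 8.88 ± 0.746 to 17.6 ± 1.07 CPM (log2 fold change 0.99, edgeR adjusted p = 1.93e-05), and its relatives Naip5 (1.22, adjusted p = 0.00582) and Naip6 (0.61, adjusted p = 0.028) also rose. The Naip genes resemble each other closely, so the split of reads among them is uncertain. Naip6 no longer passed when shControl 1 (adjusted p = 0.103), shACSL4 2 (0.108) or shACSL4 3 (0.11) was left out, and 3 members were then higher in each case. Txnip, a thioredoxin inhibitor that binds NLRP3, rose by 0.49 (adjusted p = 8.82e-05), and Dpp9, which restrains NLRP1, by 0.16 (adjusted p = 0.0439). The call of Dpp9 did not hold in 7 of 13 alternatives, with adjusted p up to 0.15: DESeq2's test, no filter, and leaving out any library other than shControl 3.

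Several other inflammasome genes had few counts. Pycard, the adaptor ASC that links sensors to caspase-1, gathered 17 control and 16 shACSL4 counts, Nlrp3 had 4 and 4, and Nlrc4, the partner of the NAIP proteins, had 9 and 21. These genes had too few counts to test, as had Nlrp1a, Nlrp6, Nlrp10 and Mefv. Aim2, the sensor of cytosolic DNA, was at 20 ± 1.91 and 18.5 ± 2.25 CPM and did not pass (edgeR adjusted p = 0.464). Of the leukocyte markers Ptprc gathered 2 control and 8 shACSL4 counts, Csf1r 16 and 6, Cd3e 0 and 16, and Cd68 was at 5.32 ± 1.22 and 4.68 ± 0.442 CPM. Lyz2 rose from 1.56 ± 0.351 to 4.66 ± 0.525 CPM, and these 5 markers summed to 5.92 to 7.6 CPM in the controls and 9.37 to 9.69 CPM in shACSL4. The pan-leukocyte gene Ptprc was thus near 0 in both groups, and the part of leukocyte RNA in these results was not tested further.

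**Figure D4:**
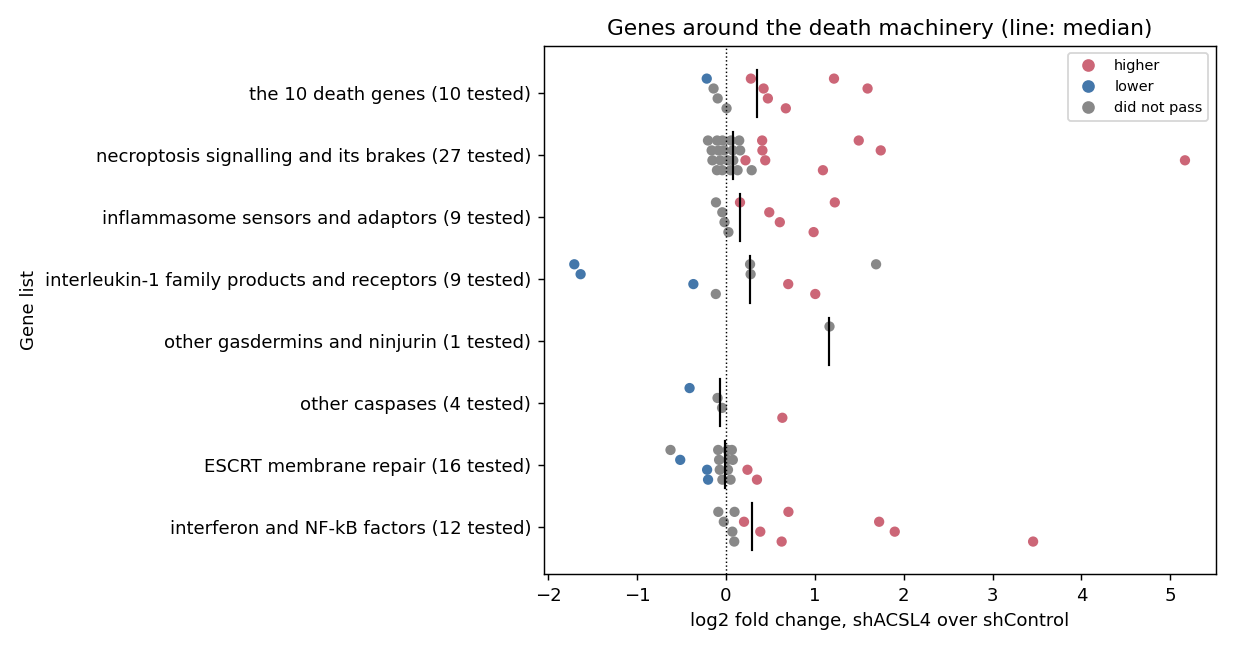
Log2 fold change of shACSL4 over shControl (horizontal axis) of every tested gene in the 10 death genes and the 7 surrounding lists (rows), with a line at each median. Zbp1 lies farthest to the right at 5.16, and the ESCRT list centres on 0.

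Among interleukin-1 family products and receptors 2 of 9 tested members rose and 3 fell, with a median of 0.27, where 15.4% of all tested genes rose and 13.6% fell. Il1b, a main cargo of caspase-1, gathered 4 control and 2 shACSL4 counts, too few to test, and Il1a, Il1r2 and Il18r1 were likewise not tested. Il18, the other cargo, was at 1.04 ± 0.129 and 1.26 ± 0.135 CPM (edgeR adjusted p = 0.467). Il18bp, the decoy that neutralises interleukin-18, rose from 5.64 ± 0.614 to 11.3 ± 3.06 CPM (adjusted p = 0.00132), and Il1r1, the interleukin-1 receptor, rose by 0.70 (adjusted p = 0.02). Il1r1 no longer passed without shControl 1 (adjusted p = 0.0759), shControl 2 (0.0754) or shACSL4 2 (0.0987). Il33 fell by 1.71 (adjusted p = 0.0151), the shared receptor subunit Il1rap by 0.37 (adjusted p = 0.000592) and Il18rap by 1.63 (adjusted p = 0.0155). Mean levels of Il33 and Il18rap were low, from 2.83 to 0.871 CPM and from 0.668 to 0.214 CPM. Those of Il1rap went from 82 to 63.6 CPM. The call of Il33 ended without shACSL4 1 (adjusted p = 0.064) and that of Il18rap without shControl 3 (0.0572), shACSL4 2 (0.072) or shACSL4 3 (0.0599). In those cases of Il1r1 the list had 1 higher member.

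Of 4 other caspases reported here 1 rose, Casp12, and 1 fell, with a median of -0.07, beside 15.4% and 13.6% of all tested genes. Casp6, a caspase of the apoptotic group, fell from 31.9 ± 3.99 to 24.1 ± 1.99 CPM (log2 fold change -0.41, edgeR adjusted p = 0.00775). Casp2 was at 32.6 ± 2.51 and 30.5 ± 2.31 CPM and Casp9, the caspase of the apoptosome, at 23.9 ± 1.93 and 23.2 ± 0.986 CPM, and neither passed (adjusted p = 0.422 and 0.737). Of the caspase genes named here Casp1, Casp4 and Casp12 were higher in shACSL4, Casp8 and Casp6 were lower, and Casp2 and Casp9 did not pass. The call of Casp8 was lost in 3 of 6 fits with 1 library left out. Other gasdermins were nearly silent: Gsdma gathered 17 control and 40 shACSL4 counts (log2 fold change 1.15, adjusted p = 0.283), and Gsdma2, Gsdmc4 and Pjvk had too few counts to test. The same held for Ninj2, a relative of Ninj1.

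The ESCRT genes, whose products shed membrane damaged by MLKL or gasdermin pores, had 2 of 16 members higher and 3 lower, with a median of -0.01. The share called, 31.2%, was near the 29.1% of all tested genes. Chmp2b rose by 0.35 and Chmp4b by 0.24 (edgeR adjusted p = 0.0011 and 0.00422), while Chmp1b fell by 0.51 (adjusted p = 0.000747), Chmp5 by 0.20 (0.0122) and Pdcd6, the calcium sensor of this repair, by 0.21 (0.0444). The call of Chmp5 ended without shACSL4 1 (adjusted p = 0.0523) or shACSL4 3 (0.0682), and 1 member was lower without either library. Pdcd6 did not pass in 8 of 13 alternatives, with adjusted p up to 0.183: library size alone, limma-voom, the stricter filter, and leaving out any library other than shControl 3. Of 12 tested interferon and NF-kB factors 7 were higher, beside 15.4% of all tested genes, and 0 lower, with a median of 0.30. Irf1 rose by 0.63 (adjusted p = 1.02e-05), Irf2, a regulator of Gsdmd transcription, by 0.39 (0.00798), Irf9 by 1.90 (9.27e-05), Stat2 by 1.72 (0.00313) and Stat3 by 0.70 (2.38e-06). Irf7 rose most of the 12, by 3.46 (edgeR adjusted p = 0.00582), from 5.72 ± 1.51 to 62.7 ± 25.8 CPM. Nfkb2 was also higher but did not pass without shControl 1, shACSL4 1 or shACSL4 3 (adjusted p of 0.0528 to 0.0576). Irf3, Nfkb1, Rela, Relb and Trp53 did not pass.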

How the data were processed

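RNA-seq of 6 libraries of cultured MC38 cells, 3 shControl and 3 shACSL4, was analysed, grouped by sample title. Total RNA was depleted of ribosomal RNA and primed with random hexamers, per the labels' protocols. CASAVA, HISAT2, DESeq2 and GRCm39 are named in the submitters' processing notes; the counting program, annotation release and strandedness are not given in the sources used here. The deposited table held raw counts and FPKM per library, per the file headers, and the authors' log2 fold change, p-value and adjusted p. For 96.3% of 10726 genes with enough reads the length behind the authors' FPKM equalled the exon length of GENCODE M21 within 0.2%, matched by gene ID.

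Counts were tested with edgeR 4.0.16 in R 4.3.3 (robust quasi-likelihood, two-sided, group as the single term, TMM, minimum count 10, minimum total 15), with Benjamini-Hochberg adjustment over 14289 genes and a threshold of 0.05. Every adjusted p of these data comes from this test unless the authors' table, an alternative or a left-out library is named. Those of alternatives and left-out libraries come from their own fits. SE is the log2 fold change over the square root of F, and 95% intervals use the test's degrees of freedom. The procedure was tested on simulated data. The alternatives were DESeq2 1.42.0, limma-voom (limma 3.58.1), other scalings and filters, a replicate block and each library left out.

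The members and lists were chosen with earlier results of these data known. Named list genes were Zbp1, Pycard, Aim2, Nlrp3, Il18, Il1b, Irf1, Irf2, Cflar and Tnfrsf1a in any case, and up to 4 per list with the smallest adjusted p; others were chosen after their values were seen. A few genes of the lists are not reported here.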

Additional observations from a re-analysis of the deposited data

How the results depend on the processing

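Under the 13 alternatives Mlkl, Fadd, Casp1, Casp4 and Gsdmd kept their direction and stayed past the threshold, with log2 fold changes of 0.34 to 0.48, 0.43 to 0.51, 1.54 to 1.65, 1.11 to 1.29 and 0.64 to 0.71 (largest adjusted p = 0.0249, for Fadd). Casp8 stayed lower, at -0.26 to -0.18 with 1 library left out, and 0 to 1 of the 10 genes were called lower. Ninj1 stayed higher, at 0.24 to 0.31. Ripk1 ran from -0.048 to 0.058 with 1 library left out (-0.009 without shControl 2, -0.048 without shACSL4 3), Ripk3 from -0.60 to 0.43 (0.43 without shControl 1, 0.28 without shACSL4 2) and Gsdme from -0.16 to 0.0015 (without shControl 1). The lists ran from 3 to 5 higher for inflammasome genes, 1 to 3 higher for the interleukin-1 family, 0 to 2 lower for necroptosis signalling and 1 to 3 lower for ESCRT genes, and all tested genes from 1252 (without shACSL4 3) to 2659 (without shControl 3) lower. By CPM per GENCODE exon length, chosen after seeing the data, 8 of 10 genes kept their place in the order of levels in the controls and 7 of 10 in shACSL4; the planned use of a length given in the table was not run, since the table gives none. The replicate numbers share no stated batch. Deviations of same-numbered libraries correlated at 0.238, 0.0665 and 0.363, and shControl 2 correlated best with shACSL4 1 (0.362). With the replicate block 2616 genes were higher and 2547 lower, 2 necroptosis signalling genes became lower, and the calls of the 10 genes stayed as they were. Depth left some list genes with too few counts to test.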
